A study of Mus musculus with 18 samples.

Results

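The secretoglobin (Scgb) genes were followed in the lacrimal gland (LG), the main source of the aqueous fluid in tears. A gene was counted as a member when its symbol in the deposited count table begins with Scgb, pseudogenes included, which gave 65 members of 54232 genes. Of these, 28 belong to the Scgb1b and 33 to the Scgb2b subfamily, and the other 4 are Scgb1a1, Scgb1c1, Scgb3a1 and Scgb3a2. The genome annotation lists 30 members as protein coding and 35 as pseudogenes. RNA was sequenced from LGs of male mice of 2 inbred strains, with 1 gland from 1 mouse per sample, at the ages of 2, 4 and 6 months (2M, 4M, 6M), with 3 mice in each of the 6 groups. BALB/cJ mice (BALB/c) were the healthy controls. NOD.B10Sn-H2b/J mice (NOD.H-2b) carry the NOD genome with the H2b major histocompatibility region of C57BL/10SnJ in place of their own I-Ag7 region, do not become diabetic and are used as a model of Sjögren's disease. No treatment was given. Because the strains differ throughout the genome, a difference between them is not tied to any single locus.

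Secretoglobins are small secreted proteins that form dimers and can hold hydrophobic ligands in an inner pocket. In the mouse the Scgb1b genes code for alpha subunits and the Scgb2b genes for beta and gamma subunits of androgen-binding protein (ABP), a dimer of 1 alpha and 1 beta or gamma chain that is released into tears and saliva. The ABP genes lie on chromosome 7 as numbered modules in which an alpha gene and a beta or gamma gene usually face away from each other, and Scgb1b27, Scgb2b26 and Scgb2b27 are known from saliva. Scgb1a1 (uteroglobin), Scgb3a1 and Scgb3a2 are best known from the airway, and Scgb2a2 is the mouse mammaglobin gene.

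In these LGs 61 of the 65 members lay in 1 cluster, chr7:31255891-34100837 of the GRCm38 build, which spans 2.85 Mb. The family took 32.5% of all counts assigned to genes as the mean of 18 mice. The total count per mouse ranged from 49480781 to 103936830. By mean counts-per-million (CPM) level, 8 members exceeded 10000 CPM, 4 lay between 1000 and 10000, 10 between 10 and 1000 and 16 between 1 and 10, while 27 were at 1 CPM or less. Counting error alone limits these values at low levels, since 3 counts are the floor below which a member was taken as not detected, and 8 members stayed at or below it in every mouse.

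The library was dominated by a few ABP genes. The 8 most abundant members, Scgb2b7, Scgb2b2, Scgb1b2, Scgb1b7, Scgb2b20, Scgb1b20, Scgb2b24 and Scgb1b3, made up 95.1% of the family's counts, and with Scgb2b12, Scgb2b3, Scgb1b24 and Scgb2b6 the share reached 99.7%. The remaining 53 members held 0.309% of the family's counts, and the 35 annotated pseudogenes held 0.558%. Among these, Scgb2b6 held 0.422% of the family's counts, at a mean of 1373 CPM, and Scgb2b28-ps 0.0892%, at 289.9 CPM. Scgb2b1, Scgb2b6, Scgb2b10, Scgb2b30, Scgb2b33 and Scgb1b21 carry no -ps in their symbols but are annotated as pseudogenes too. Scgb1b genes accounted for 42.3% and Scgb2b genes for 57.7%.

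The share of the family differed between the groups and took a different course in each strain. In BALB/c the 3 mice held 34.5, 34.98 and 33.6% at 2M, 30.3, 31.1 and 30.9% at 4M and 30.9, 31.1 and 32.0% at 6M. In NOD.H-2b the shares were 30.4, 31.7 and 31.0% at 2M, 32.7, 36.1 and 34.9% at 4M and 31.2, 33.9 and 34.4% at 6M. At 2M all 3 BALB/c mice lay above all 3 NOD.H-2b mice, at 4M the order was the opposite, and at 6M the groups overlapped. The mean difference, NOD.H-2b minus BALB/c, was −3.35 percentage points at 2M, 3.79 at 4M and 1.81 at 6M. A sum over members was given no test.

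**Figure D1:**
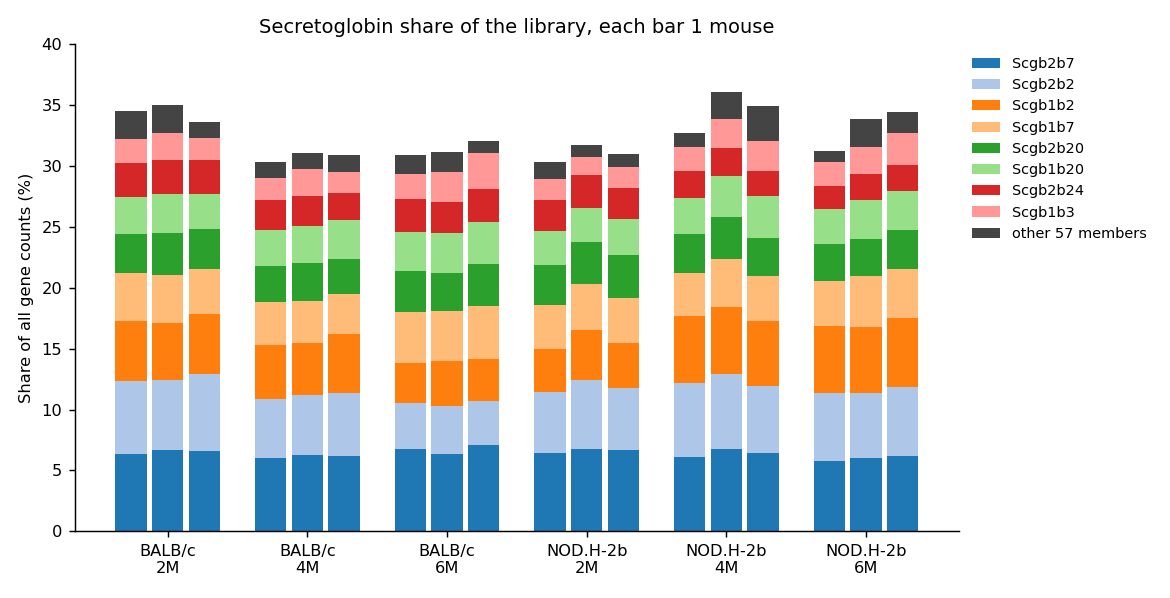
Share of all gene counts taken by the secretoglobin members in each of the 18 mice, in percent, stacked by the 8 most abundant members and the other 57 together. The bars lie between 30.3 and 36.1% in every mouse, with the highest bars in BALB/c at 2M and in NOD.H-2b at 4M.

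The size of these shares depended on which loci were counted. The table lists Scgb2a2, the mammaglobin gene on chromosome 19, and the alpha genes Scgb1b10, Scgb1b15 and Scgb1b17 under other symbols, so they were not members. With these 4 loci added, the differences became −3.94 points at 2M, 1.78 at 4M and −0.889 at 6M, so that the direction at 6M turned. Scgb2a2 made up nearly all of the addition, as it took 0.679, 2.89 and 3.47% of the counts in BALB/c at 2M, 4M and 6M and 0.0853, 0.874 and 0.765% in NOD.H-2b. The RNA of other cells in the gland also moved with strain and age. Over 10 B cell markers the summed level ranged from 0.0474 to 2.95 CPM over the 9 BALB/c mice, and in the NOD.H-2b mice from 2.52 to 39.6 CPM at 2M, from 174.6 to 422 CPM at 4M and from 293 to 683 CPM at 6M. Over 26 markers of acinar and epithelial structure the sum ranged from 9673 to 11243 CPM in BALB/c and among NOD.H-2b mice from 10232 to 11932 CPM at 2M, but from 7043 to 8191 CPM at 4M and from 6007 to 7507 CPM at 6M. The second sum rests largely on Lpo, which was also listed among other secreted products of the gland. Lpo alone ranged from 3325 to 8090 CPM over all mice, and the next highest marker, Bhlha15, reached at most 1001 CPM. This sum is thus not an even measure of the 26 markers, whose single calls are given below. The part of either marker set in the family's share was not tested. In whole glands fewer cells of a type and less RNA per cell cannot be told apart.

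Levels of different members were compared per length, as CPM divided by the kilobases of exon (RPKM). On this scale the alpha gene Scgb1b2 was the most abundant member, at a mean of 108429 RPKM, followed by Scgb1b7 (90997 RPKM), Scgb2b2 (89618 RPKM), Scgb1b20 (73501 RPKM) and Scgb2b7 (68301 RPKM). Scgb2b7 led by CPM because its annotated exons are 938 bases long, against 424 for Scgb1b2. Scgb1b2 was first in BALB/c at 2M and 4M and in NOD.H-2b at 4M and 6M, and in these 4 groups its 3 mice lay above all mice of the next member. In BALB/c at 6M the first place went to Scgb1b7 with 100792 ± 3211 RPKM (SD, n = 3), above Scgb1b2 with 82684 ± 5109 RPKM, whose mice overlapped those of Scgb1b20. In NOD.H-2b at 2M the 3 leading members, Scgb2b2, Scgb1b2 and Scgb1b7, had means between 88523 and 89864 RPKM and overlapped.

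**Figure D2:**
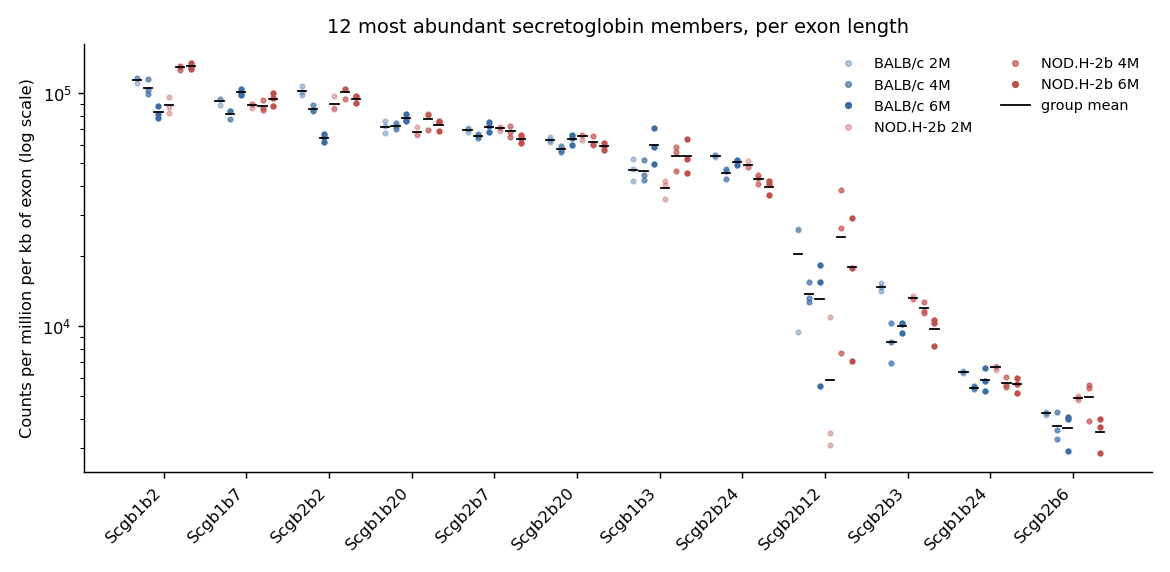
Level of the 12 most abundant members in each of the 18 mice, in RPKM on a log axis, with strains and ages in separate columns of points. The points of the 8 most abundant members lie close together within a group, and those of Scgb2b12 spread widely.

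Among the 12 most abundant members, only those of module 2 had a strain difference that was called to change with age. Scgb1b2 (chr7:31290519-31291821, minus strand) is an alpha gene and Scgb2b2 (chr7:31290508-31304977, plus strand) is its beta or gamma partner. Their promoters are shown because these genes moved together and because the alpha gene holds the TATA box core TATAAA before its start while the partner does not. Each promoter in this report is 250 bases before to 50 bases after the gene's start, from RefSeq on GRCm38.p6, in the direction of the gene. Capitals mark TATAAA on the gene's strand. The Scgb1b2 promoter is chr7:31291767-31292066 on the minus strand and the Scgb2b2 promoter is chr7:31302519-31302818 on the plus strand.
Scgb1b2: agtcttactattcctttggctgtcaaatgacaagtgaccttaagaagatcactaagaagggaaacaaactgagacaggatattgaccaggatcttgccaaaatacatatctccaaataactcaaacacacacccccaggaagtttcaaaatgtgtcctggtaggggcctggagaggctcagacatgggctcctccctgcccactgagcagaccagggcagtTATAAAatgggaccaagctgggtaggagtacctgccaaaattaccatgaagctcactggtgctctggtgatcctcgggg
Scgb2b2: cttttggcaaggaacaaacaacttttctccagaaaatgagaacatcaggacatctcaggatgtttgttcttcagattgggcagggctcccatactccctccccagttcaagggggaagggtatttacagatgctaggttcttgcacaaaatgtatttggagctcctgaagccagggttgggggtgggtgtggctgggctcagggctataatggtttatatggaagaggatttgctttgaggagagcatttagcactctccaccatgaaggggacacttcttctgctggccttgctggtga

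Scgb1b2 fell with age in BALB/c and rose from 2M to 4M in NOD.H-2b. In BALB/c it was at 49115, 46952 and 49323 CPM at 2M, at 43824, 42073 and 48569.6 CPM at 4M and at 33121, 37396 and 34657 CPM at 6M. In the NOD.H-2b glands the values were 34889, 40813 and 36909 CPM at 2M, 55162, 55429 and 53535 CPM at 4M and 54923, 53980.2 and 56859.8 CPM at 6M. The strains did not overlap at any age, with BALB/c above at 2M and NOD.H-2b above at 4M and 6M. The log2 fold change of NOD.H-2b against BALB/c was −0.55 (SE 0.068, adjusted p = 7.6e-05, edgeR) at 2M, which is a call, and 0.14 (adjusted p = 0.239) and 0.28 (adjusted p = 0.172) at 4M and 6M, which are not. From 2M to 6M the BALB/c level fell by 0.43 on the log2 scale (adjusted p = 0.00259). From 2M to 4M the NOD.H-2b level rose by 0.57 (adjusted p = 0.00948), a call that was lost without NOD.H-2b 2M replicate 3 (adjusted p = 0.0566). The test of the difference itself, the strain by age term over all 18 mice, gave 0.73 (SE 0.13, adjusted p = 0.00682) from 2M to 4M and 0.84 (SE 0.13, adjusted p = 0.001) from 2M to 6M, and both were kept when any mouse was left out.

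Scgb2b2 followed a similar course. Its fall with age among BALB/c mice was larger than that of Scgb1b2. The rise of its mean by 4M among NOD.H-2b mice was smaller and was not called. In BALB/c Scgb2b2 was at 59534, 57632 and 62833 CPM at 2M, at 49093, 49651 and 51885 CPM at 4M and at 37797, 39091 and 36169 CPM at 6M. NOD.H-2b mice held 50242, 57048 and 50690.1 CPM at 2M, 60941, 61079 and 55477 CPM at 4M and 56123, 53180.4 and 56823 CPM at 6M. The strains did not overlap at any age, again with BALB/c above at 2M and NOD.H-2b above later. At 2M the log2 fold change was −0.37 (SE 0.069, adjusted p = 0.00118), while at 4M and 6M it was 0.089 and 0.18, neither of them called. In BALB/c the level fell by 0.30 from 2M to 4M (adjusted p = 0.00427) and by 0.63 from 2M to 6M (adjusted p = 0.000107). The strain by age term was 0.56 (SE 0.12, adjusted p = 0.00674) from 2M to 6M. From 2M to 4M it was 0.50 (SE 0.12, adjusted p = 0.0445), and this call was lost in 13 of 18 fits that left out 1 mouse, namely each BALB/c mouse, NOD.H-2b 2M replicates 1 and 3 and NOD.H-2b 4M replicates 1 and 2, at adjusted p from 0.0573 to 0.155. This call was also lost when the scaling left out the Scgb genes.

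The partners did not keep a fixed ratio. Per length, Scgb2b2 stood at 0.896 of Scgb1b2 in BALB/c at 2M, 0.813 at 4M and 0.779 at 6M, and at 1.02, 0.782 and 0.725 in NOD.H-2b, as means of 3 mice. In both strains the 3 ratios at 2M lay above those at 4M and 6M. The annotated span of Scgb1b2 lies wholly within that of Scgb2b2 on the opposite strand, over 1303 bases, and the last exon of Scgb1b2 meets the first exon of an annotated Scgb2b2 transcript. The RefSeq promoter of Scgb2b2 shown above lies beyond this overlap. The sources used here do not give the strand setting of the counting, so reads from where these exons meet may have been left out or assigned to either gene. Neither gene shares any 75-base exon window, on either strand, with another Scgb locus, its partner included.

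Scgb2b1, the Scgb2b locus of module 1, which the annotation lists as an unprocessed pseudogene, was the member with a strain difference of at least 2-fold in 1 direction at all 3 ages. Its level is low next to the dominant genes, at a mean of 36.9 CPM or 109 RPKM. In BALB/c it was at 21.6, 29.7 and 26.2 CPM at 2M, at 4.96, 6.27 and 9.62 CPM at 4M and at 4.96, 3.96 and 3.28 CPM at 6M. The values in NOD.H-2b were 63.4, 75.2 and 80.3 CPM at 2M, 66.7, 60.5 and 49.5 CPM at 4M and 65.5, 38.7 and 54.1 CPM at 6M. Every NOD.H-2b mouse exceeded every BALB/c mouse of any age. The log2 fold change between strains was 1.31 (SE 0.14, adjusted p = 0.0005) at 2M, 2.94 (SE 0.22, adjusted p = 0.000117) at 4M and 3.29 (SE 0.18, adjusted p = 1.76e-06) at 6M.

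The widening of this gap with age came with a fall in BALB/c. There Scgb2b1 fell by 1.94 on the log2 scale from 2M to 4M (adjusted p = 0.0117), a call lost without BALB/c 2M replicate 3 (adjusted p = 0.0504) or BALB/c 4M replicate 2 (adjusted p = 0.056), and by 2.61 from 2M to 6M (adjusted p = 6.54e-05), the largest change of any called member in both comparisons. In NOD.H-2b it fell by 0.64 from 2M to 6M (adjusted p = 0.0161), with overlapping mice, and this call was lost without NOD.H-2b 2M replicate 3 (adjusted p = 0.0614) and with library totals (−0.47, adjusted p = 0.129). The strain by age term was 1.66 (SE 0.29, adjusted p = 0.0132) from 2M to 4M and 1.98 (SE 0.29, adjusted p = 0.00162) from 2M to 6M and was kept whichever mouse was left out. Its partner Scgb1b1-ps, also a pseudogene, lay between 0.119 and 0.509 CPM in all mice. Scgb1b1-ps rose in NOD.H-2b from 0.176, 0.145 and 0.169 CPM at 2M to 0.424, 0.509 and 0.396 CPM at 6M, by 1.27 on the log2 scale (adjusted p = 0.0238), the largest called change of that comparison, and the call was lost without any 1 of NOD.H-2b 2M replicates 1, 2 and 3 and 6M replicates 2 and 3 (adjusted p from 0.0552 to 0.0739).

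The Scgb2b1 promoter, chr7:31263486-31263785 on the plus strand, is shown beside that of Scgb2b2 because the genes are neighbours and went in different directions between strains at 2M. The promoters are 82.5% identical, and in Scgb2b1 the bases at the aligned place of the TATA box core read TATAAG.
Scgb2b1: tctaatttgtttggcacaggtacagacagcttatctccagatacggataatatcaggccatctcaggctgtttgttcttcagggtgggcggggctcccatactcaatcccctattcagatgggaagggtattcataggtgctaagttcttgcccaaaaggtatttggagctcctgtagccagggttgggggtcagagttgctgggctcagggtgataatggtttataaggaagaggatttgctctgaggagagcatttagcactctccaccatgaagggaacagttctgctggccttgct

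**Figure D3:**
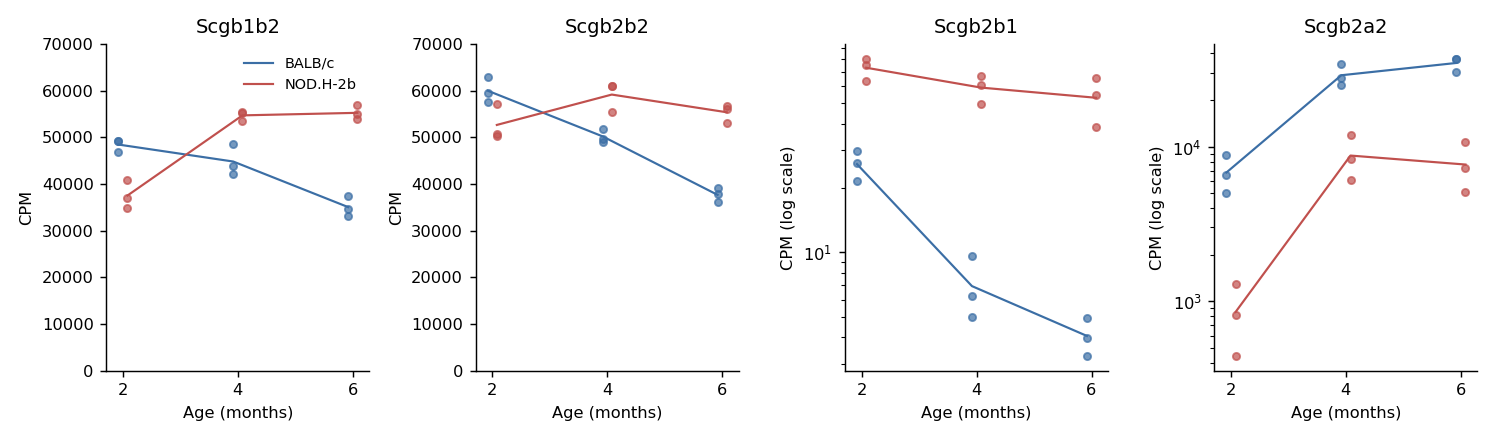
Level in CPM against age in months for Scgb1b2, Scgb2b2, Scgb2b1 and Scgb2a2, with a point for each mouse and lines through the mean of 3 mice per strain. Scgb1b2 and Scgb2b2 cross between 2M and 4M, Scgb2b1 falls in BALB/c and stays above 38 CPM in NOD.H-2b, and Scgb2a2 is higher in BALB/c at each age.

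Scgb2a2, listed under another symbol, took its own course and was lower in NOD.H-2b at each age. In BALB/c it was at 8757, 6572 and 5047 CPM at 2M, at 34175, 27616 and 24825 CPM at 4M and at 30470.5, 36854 and 36663 CPM at 6M. The NOD.H-2b mice had 815, 1301 and 444 CPM at 2M, 11873, 8295 and 6065 CPM at 4M and 5073, 7257 and 10622 CPM at 6M. All BALB/c mice exceeded all NOD.H-2b mice of the same age. The log2 fold change between strains was −3.17 (SE 0.53, adjusted p = 0.0113) at 2M, −1.89 (adjusted p = 0.00109) at 4M and −2.54 (adjusted p = 9.64e-05) at 6M, and only the call at 2M was lost in a fit that left out 1 mouse, NOD.H-2b 2M replicate 1 (adjusted p = 0.0508). From 2M to 6M it rose by 2.40 in BALB/c (adjusted p = 0.0107, lost at 0.0691 without BALB/c 6M replicate 2) and by 3.02 in NOD.H-2b (adjusted p = 0.0105). The strain by age term was not called, at 1.32 (adjusted p = 0.248) and 0.64 (adjusted p = 0.462).

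Across the whole family, at 2M and 6M more members were called lower than higher in the NOD.H-2b mice, and at 4M all calls were higher. At 2M, 51 members had enough counts to be tested and 14 were called, 2 higher and 12 lower, where 39.8% of all tested genes were called, 22.5% higher and 17.2% lower. At 4M, 7 of 51 were called, all of them higher, where 42.6% of all genes were called, 23.4% higher and 19.2% lower. In the lower direction at 4M edgeR called 0 members, 1 member had an unadjusted p under 0.05 in edgeR, and DESeq2 called 2. At 6M, 7 of 50 were called higher and 10 lower, where 54.4% of all genes were called, 28.6% higher and 25.8% lower. The median log2 fold change of the tested members was −0.26, 0.18 and −0.47 at 2M, 4M and 6M, against 0.010, 0 and −0.0040 over all genes tested. Over the 3 ages 27 members were called at least once, 1 of them, Scgb2b1, at all ages, and 14 members had too few counts to be tested at any age. The share of all genes called at least once or at all ages is not given, so these are counts only. At each age the called share of the tested members was below that of all genes.

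**Figure D4:**
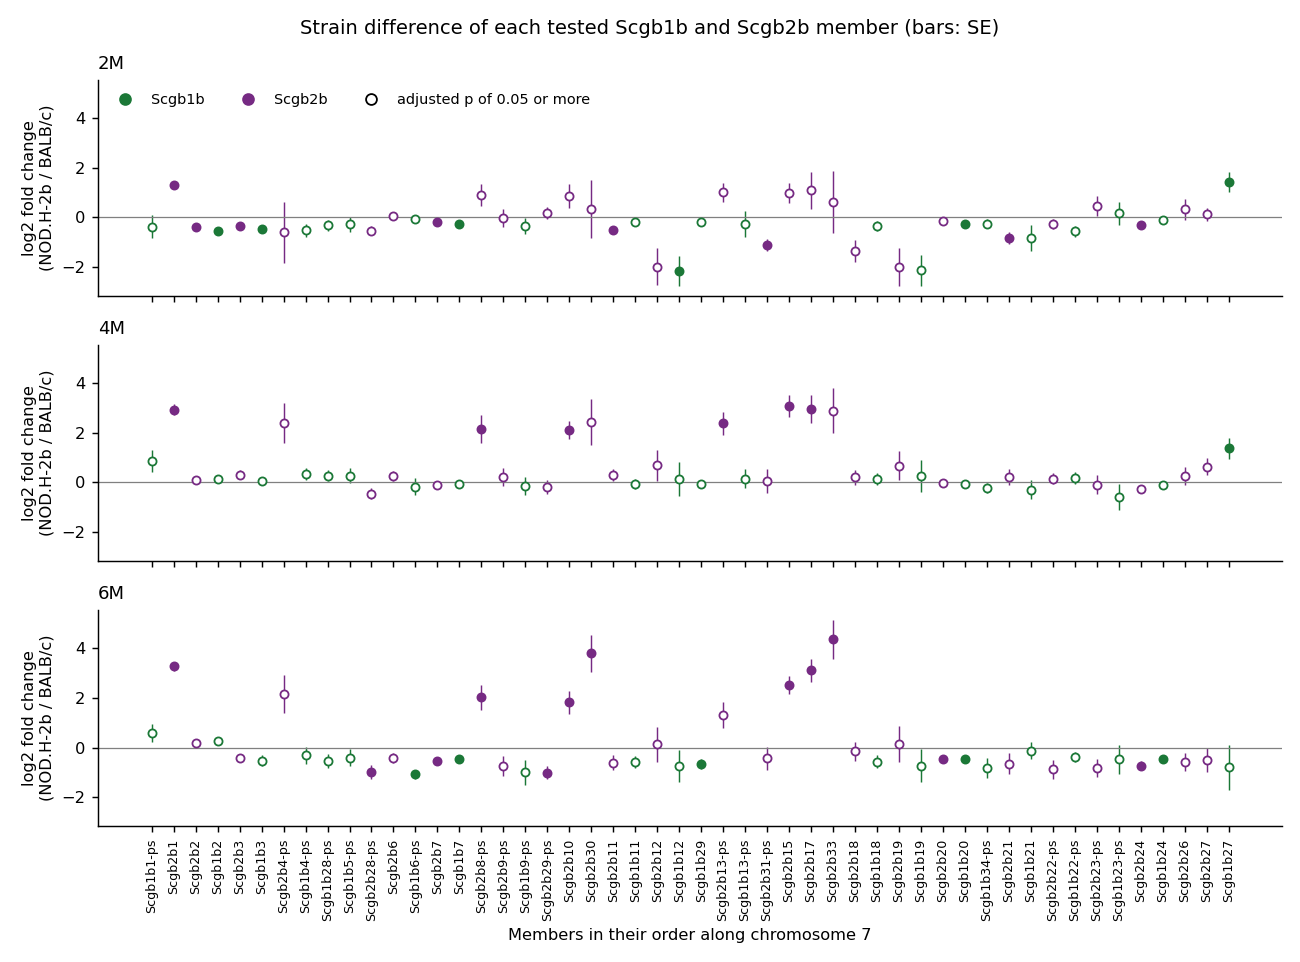
Log2 fold change of NOD.H-2b against BALB/c with its standard error for the tested members, in their order along the chromosome 7 cluster, in 1 panel per age. Filled points are called at an adjusted p under 0.05. Most points lie within 1 log2 unit of 0, and the points above 2 at 4M and 6M are low-abundance Scgb2b genes.

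These splits depended on scaling. Tests used TMM scaling, which sets most genes to no change. With library totals alone the median of all genes moved to 0.20, 0.15 and 0.38 at 2M, 4M and 6M, and the calls became 5 higher and 6 lower at 2M, 10 and 0 at 4M and 11 and 2 at 6M. The share of all genes called with library totals is not given, so these are counts only. Calls of small size among the dominant genes are relative to the other genes of the same LG.

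Modules 7 and 20 were abundant in all groups, with strain calls of small size. The beta or gamma gene Scgb2b7 was at 63723, 66482 and 65991 CPM in BALB/c at 2M, 59978, 62549.6 and 61636 CPM at 4M and 67638, 63559 and 70810.2 CPM at 6M. In the NOD.H-2b glands the values were 64426, 67410.0 and 66748 CPM, 60859, 67821 and 63990.3 CPM and 57505, 60346 and 61717 CPM at the same ages. The strains overlapped at 2M and 4M, and at 6M the NOD.H-2b mice lay below the BALB/c mice. Scgb2b7 was called lower at 2M (log2 fold change −0.17, adjusted p = 0.0237) and 6M (−0.55, adjusted p = 0.0231). The call at 2M was lost without BALB/c 2M replicate 1, 2 or 3 (adjusted p from 0.0592 to 0.0959), and with library totals the value at 2M turned to 0.017. Its alpha partner Scgb1b7 was at 39549.6, 39647 and 37176 CPM in BALB/c at 2M, 34972, 35148 and 32503 CPM at 4M and 41797, 41158 and 43741 CPM at 6M. In NOD.H-2b Scgb1b7 was at 36252, 37559.9 and 37461 CPM, 35289.8, 39051 and 36308 CPM and 36981, 41755 and 39947 CPM. The strains overlapped at 2M and 6M in CPM, while at 4M the NOD.H-2b mice lay above the BALB/c mice. Scgb1b7 was called lower at 2M (−0.25, adjusted p = 0.00226) and 6M (−0.47, adjusted p = 0.0408). The calls at 6M were lost without BALB/c 6M replicate 1, 2 or 3 or NOD.H-2b 6M replicate 3, at adjusted p from 0.0544 to 0.0966 for Scgb2b7 and from 0.0928 to 0.134 for Scgb1b7. With library totals none of these 4 calls remained (Scgb1b7 −0.065, adjusted p = 0.348 at 2M and −0.094, adjusted p = 0.267 at 6M, and Scgb2b7 −0.17, adjusted p = 0.0547 at 6M).

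Module 20 gave the same picture. Scgb2b20 was at 32127, 34042 and 32988 CPM in BALB/c at 2M, 29816, 30953 and 29172 CPM at 4M and 33700.1, 31170.5 and 34448 CPM at 6M. NOD.H-2b mice held 33030.1, 34608 and 34661 CPM, 31661, 34242 and 31251 CPM and 29921, 31096 and 32077 CPM. At 4M the NOD.H-2b mice lay above the BALB/c mice, and at 2M and 6M the strains overlapped. Scgb1b20, the alpha gene, was at 30467, 31806 and 28319 CPM in BALB/c at 2M, 29584, 30544 and 31396 CPM at 4M and 31947, 32207 and 34229.8 CPM at 6M. The values in NOD.H-2b were 27938, 28133 and 30177 CPM, 29354, 34049.5 and 34298 CPM and 29039, 31488 and 32014 CPM. The strains overlapped at all 3 ages in CPM. Scgb1b20 was called lower at 2M (−0.26, adjusted p = 0.00379), and at 6M both Scgb1b20 (−0.46, adjusted p = 0.0371) and Scgb2b20 (−0.47, adjusted p = 0.0325) were called lower. The calls at 6M were lost without BALB/c 6M replicate 1, 2 or 3 or NOD.H-2b 6M replicate 3, at adjusted p from 0.0661 to 0.117 for Scgb2b20 and from 0.0827 to 0.129 for Scgb1b20, and were lost with library totals too (−0.093, adjusted p = 0.259 and −0.088, adjusted p = 0.287), as was that of Scgb1b20 at 2M (−0.071, adjusted p = 0.369). Modules 7 and 20 share exon sequence, since 60.6% of the 75-base windows of Scgb1b7, 45.8% of Scgb1b20, 36.1% of Scgb2b20 and 18.4% of Scgb2b7 also occur in another Scgb locus, so counts may be split between copies.

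In module 24 the beta or gamma gene far outweighed the alpha gene. Scgb2b24 was at 27735, 28433 and 28342 CPM in BALB/c at 2M, 24299.5, 24630.2 and 22432 CPM at 4M and 26920.3, 25695 and 26775 CPM at 6M. The NOD.H-2b mice had 25181, 26839.7 and 25153 CPM, 22555, 23236 and 21206 CPM and 19171, 21832 and 21226 CPM. The NOD.H-2b mice lay below at 2M and 6M, and these calls, of −0.32 (adjusted p = 0.000682) and −0.73 (SE 0.17, adjusted p = 0.00416), were kept when any mouse was left out. With library totals the value at 6M was −0.35 (adjusted p = 0.00176) and that at 2M was no longer called, at −0.13 (adjusted p = 0.0617). Scgb1b24 was at 1747, 1791 and 1774 CPM in BALB/c at 2M, 1535, 1489 and 1528 CPM at 4M and 1615, 1466 and 1833 CPM at 6M. In the NOD.H-2b glands the values were 1883, 1814 and 1859 CPM, 1524, 1678 and 1561 CPM and 1439, 1676 and 1579.5 CPM. In CPM the NOD.H-2b mice lay above at 2M and the strains overlapped later. Scgb1b24 was called lower at 6M (−0.44, adjusted p = 0.0304), which was lost without BALB/c 6M replicate 1 or 3 or NOD.H-2b 6M replicate 3 (adjusted p from 0.0692 to 0.116) and with library totals (−0.066, adjusted p = 0.562). Per length Scgb2b24 was 7.91 times Scgb1b24 over all mice.

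In module 3 the balance was the other way. The alpha gene Scgb1b3 was at 19750.2, 21751 and 17515 CPM in BALB/c at 2M, 18619.7, 21595 and 17715 CPM at 4M and 20709, 24607 and 29704 CPM at 6M. NOD.H-2b mice held 16850.1, 14704 and 17579.8 CPM, 19428, 23462 and 24568 CPM and 19109, 21851 and 26643 CPM. The strains overlapped at each age, and Scgb1b3 was called lower at 2M (−0.45, SE 0.080, adjusted p = 0.00133). In NOD.H-2b it rose by 0.49 from 2M to 4M (adjusted p = 0.0316), a call lost without NOD.H-2b 2M replicate 1, 2 or 3 or 4M replicate 2 or 3 (adjusted p from 0.0853 to 0.102).

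Scgb2b3, its partner, was at 4788, 5189 and 4967 CPM in BALB/c at 2M, 2879.8, 3493 and 2347 CPM at 4M and 3496, 3156 and 3469 CPM at 6M. The values in NOD.H-2b were 4575, 4438 and 4422 CPM, 3948, 4315 and 3868 CPM and 2789, 3474 and 3598 CPM. It was called lower in NOD.H-2b at 2M (−0.34, adjusted p = 0.000264). From 2M to 6M Scgb2b3 fell by 0.52 in BALB/c (adjusted p = 0.000745) and by 0.59 in NOD.H-2b (adjusted p = 0.0191), the second of which was lost without NOD.H-2b 2M replicate 1, 2 or 3 (adjusted p from 0.0547 to 0.0707). Per length Scgb2b3 stood at 0.315 of Scgb1b3 in BALB/c at 2M and 0.171 at 6M, and at 0.340 and 0.181 in NOD.H-2b, so that both strains showed the lower ratio at the later age.

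Scgb2b6, annotated as an unprocessed pseudogene, completed the 12 most abundant members. It was at 1404, 1374 and 1389 CPM in BALB/c at 2M, 1185, 1414 and 1084 CPM at 4M and 1336, 1309 and 960.0 CPM at 6M. The NOD.H-2b mice had 1625, 1589.9 and 1657 CPM, 1286, 1786 and 1841 CPM and 942, 1316 and 1217 CPM. The NOD.H-2b mice were above at 2M in CPM, with a log2 fold change of 0.040 (adjusted p = 0.537), and no strain difference was called at any age. In NOD.H-2b Scgb2b6 fell by 0.63 from 2M to 6M (adjusted p = 0.0177), which was lost without NOD.H-2b 2M replicate 3 (adjusted p = 0.0723). Its partner Scgb1b6-ps, also a pseudogene and between 3.02 and 8.04 CPM, fell by 1.15 in the same comparison (adjusted p = 0.00161) and was called lower in NOD.H-2b at 6M (−1.07, SE 0.18, adjusted p = 0.000752), where the BALB/c mice were at 5.31, 5.40 and 6.04 CPM and the NOD.H-2b mice at 3.02, 4.11 and 3.17 CPM. Both Scgb1b6-ps calls were kept when any mouse was left out.

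At 4M and 6M the NOD.H-2b mice had higher levels of a set of low-abundance Scgb2b genes. At 4M the calls higher were Scgb2b15 (log2 fold change 3.08), Scgb2b17 (2.97), Scgb2b1, Scgb2b13-ps (2.39), Scgb2b8-ps (2.15), Scgb2b10 (2.12) and Scgb1b27 (1.37). At 6M they were Scgb2b33 (4.36), Scgb2b30 (3.81), Scgb2b1, Scgb2b17 (3.11), Scgb2b15 (2.51), Scgb2b8-ps (2.03) and Scgb2b10 (1.83). Thus 5 members, Scgb2b1, Scgb2b8-ps, Scgb2b10, Scgb2b15 and Scgb2b17, were called higher at both ages, a count given without the share over all genes. The calls at 6M for Scgb2b30 (adjusted p = 0.0543 without BALB/c 6M replicate 2) and for Scgb2b10 (adjusted p from 0.0575 to 0.0792 without BALB/c 6M replicate 1 or NOD.H-2b 6M replicate 2 or 3) did not survive the loss of a single mouse. The call of Scgb1b27 at 4M was lost without BALB/c 4M replicate 2 or 3 or NOD.H-2b 4M replicate 2 (adjusted p from 0.0539 to 0.115).

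These genes were far below the dominant members. Scgb2b15 was at 0.543, 0.696 and 0.205 CPM in BALB/c at 2M, 0.305, 0.0737 and 0.357 CPM at 4M and 0.366, 0.344 and 0.200 CPM at 6M. In the NOD.H-2b glands the values were 1.53, 0.870 and 0.844 CPM, 1.60, 2.78 and 2.61 CPM and 1.48, 2.82 and 2.54 CPM. The strains did not overlap at any age. From 2M to 4M Scgb2b15 rose in NOD.H-2b by 1.14 (adjusted p = 0.044), the largest called change of that comparison, which was lost without NOD.H-2b 2M replicate 2 or 3 or 4M replicate 2 or 3 (adjusted p from 0.0994 to 0.151). Scgb2b17 was at 2.63, 0.922 and 3.44 CPM in BALB/c at 4M against 12.1, 21.4 and 26.5 CPM in NOD.H-2b, and at 2.24, 2.28 and 1.98 CPM against 14.2, 36.6 and 20.8 CPM at 6M. Scgb2b33 was at 3.65, 3.90 and 8.21 CPM in BALB/c at 6M against 63.9, 239 and 102 CPM in NOD.H-2b, a wide spread within the second group. Scgb1b10, the alpha partner of Scgb2b10 that the table lists under another symbol, was also called higher at 4M (2.96, adjusted p = 0.0118, lost at 0.0575 without BALB/c 4M replicate 1) and 6M (2.01, adjusted p = 0.001).

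Near-identical copies make these rows uncertain. All of the 75-base windows of Scgb2b15, 97.9% of those of Scgb2b17, 48.9% of Scgb2b33, 48.5% of Scgb2b30 and 45.1% of Scgb2b10 occur in at least 1 other Scgb locus, and the reference genome is that of C57BL/6J, which is neither of these strains. The part of sequence differences between the strains was not tested. Scgb2b1 shares no such window with another Scgb locus in the reference. How reads of these strains were assigned was not tested.

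Some members varied strongly between mice of 1 group, and most of these varied together. Scgb2b12, the most abundant of them, was at 13357, 13171 and 4838 CPM in BALB/c at 2M, 6756, 6454 and 7862 CPM at 4M and 7864, 9362 and 2818 CPM at 6M. NOD.H-2b mice held 5601, 1581 and 1776 CPM, 3912, 13417 and 19577 CPM and 3613, 14791 and 9064 CPM. The strains overlapped at every age and no strain difference was called, with log2 fold changes of −2.0, 0.69 and 0.13 (adjusted p = 0.112, 0.45 and 0.891). Its alpha partner Scgb1b12 was at 28.9, 23.7 and 10.8 CPM, 19.9, 17.3 and 25.9 CPM and 18.7, 29.5 and 11.3 CPM in BALB/c, and at 8.74, 2.95 and 4.39 CPM, 7.75, 23.5 and 44.4 CPM and 6.31, 23.6 and 14.6 CPM in NOD.H-2b. Scgb1b12 was high and low in the same mice as Scgb2b12, and per length Scgb2b12 was 369 times as abundant. Scgb1b12 was called lower in NOD.H-2b at 2M (−2.17, adjusted p = 0.0486), which was lost without BALB/c 2M replicate 1 or 2 or NOD.H-2b 2M replicate 2 or 3 (adjusted p from 0.118 to 0.14) and with library totals (−1.98, adjusted p = 0.058).

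The spread was measured as the SD of log2(CPM + 0.5) around the group mean, over 18 mice, for 16031 genes with a mean of at least 20 counts, 45 of them members. It was 1.34 for Scgb2b33, 1.25 for Scgb2b30, 1.01 for Scgb2b4-ps, 0.93 for Scgb2b12, 0.90 for Scgb2b19, 0.83 for Scgb1b19, 0.81 for Scgb1b12, 0.73 for Scgb2b17, 0.59 for Scgb2b10 and 0.54 for Scgb1b27. The 8 most abundant members lay between 0.055 and 0.19. The median was 0.29 for members and 0.16 for all these genes, and 10 members exceeded 0.5, as did 2.04% of all these genes. Within NOD.H-2b at 2M the mouse with the lowest Scgb2b12 had 1581 CPM and the highest 5601 CPM, and within NOD.H-2b at 4M the values differed by 5.00-fold.

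The deviations from the group mean ran in parallel across the cluster. Over the 18 mice, which share 12 degrees of freedom after the group means are removed, the correlation with Scgb2b12 was 0.999 for Scgb2b19, 0.985 for Scgb1b19, 0.966 for Scgb1b12, 0.884 for Scgb2b15, 0.878 for Scgb2b18 and 0.853 for Scgb2b11. In all, 17 other members exceeded 0.6, as did 3.69% of all these genes. Scgb2b30 and Scgb2b33 had a correlation of 0.995 with each other and of 0.96 with Scgb2b17, and of 0.67 and 0.65 with Scgb2b12. Scgb1b27, although its SD was above 0.5, had a correlation of 0.264 with Scgb2b12 and of 0.033 to 0.298 with the other variable members. The abundant genes of the cluster did not share the pattern, with correlations between −0.41 for Scgb2b2 and 0.48 for Scgb1b20. Outside the family the closest genes were Gm9167 (0.926), Nmu (0.919), which codes for the peptide neuromedin U, and Magi1 (0.899). These correlations are descriptions: the points share library and depth, and Scgb2b12 and Scgb2b19 share 42.3 and 42.8% of their 75-base windows with other Scgb loci, so reads of the abundant gene counted to a copy would raise them. The part of such reads was not tested.

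**Figure D5:**
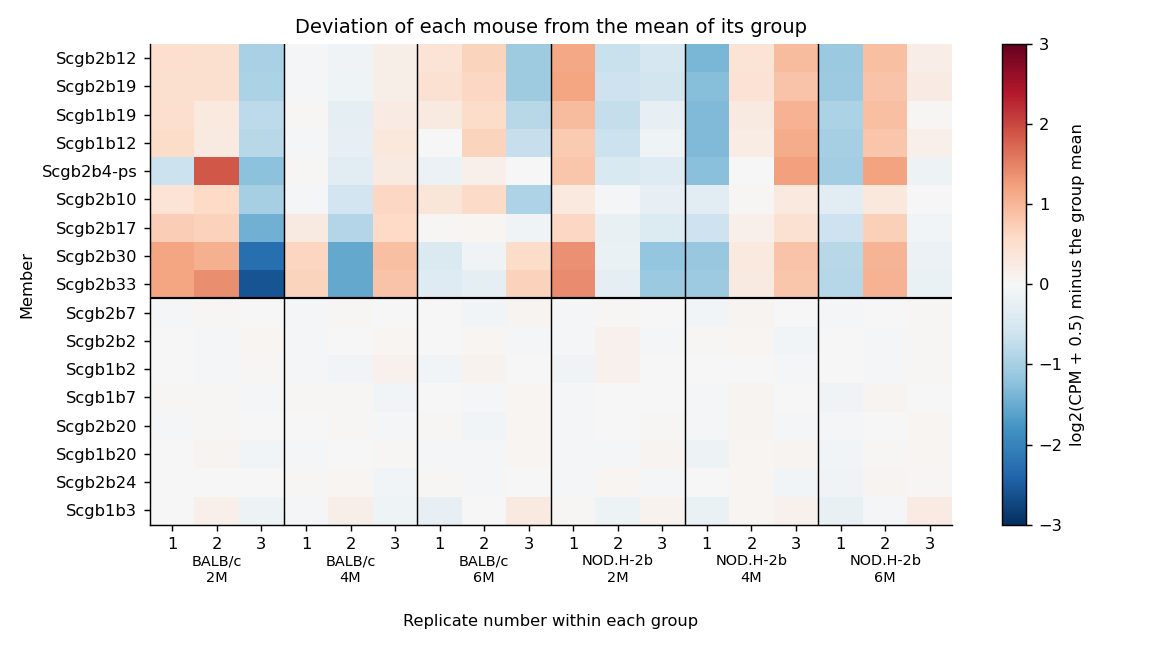
Heat map of the deviation of log2(CPM + 0.5) from the group mean in each of the 18 mice, with 9 variable members above the 8 most abundant members. The 9 are the members with an SD above 0.5 and a correlation with Scgb2b12 above 0.6, so their shared pattern follows from how they were chosen. Scgb1b27, whose SD was also above 0.5 but whose correlation was 0.264, is left out. The variable rows change colour together from mouse to mouse, up in some mice of a group and down in others, while the rows of the 8 most abundant members stay close to 0.

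Promoters of some variable Scgb2b genes and of the steady Scgb2b20 are set out here because they differ at the TATA box core. Other members that moved with Scgb2b12 lack the placed TATAAA, as given below. Scgb2b12 (chr7:32327196-32327495, minus strand), Scgb2b19 (chr7:33280292-33280591, minus strand), Scgb2b17 (chr7:33056503-33056802, minus strand) and Scgb2b33 (chr7:33113409-33113708, minus strand) are variable, and Scgb2b20 (chr7:33366270-33366569, minus strand) is steady.
Scgb2b12: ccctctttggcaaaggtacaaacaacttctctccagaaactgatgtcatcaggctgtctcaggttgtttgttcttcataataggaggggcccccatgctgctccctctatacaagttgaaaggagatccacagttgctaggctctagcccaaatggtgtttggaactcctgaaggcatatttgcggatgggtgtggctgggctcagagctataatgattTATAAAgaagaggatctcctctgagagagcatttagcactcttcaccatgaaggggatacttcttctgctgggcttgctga
Scgb2b19: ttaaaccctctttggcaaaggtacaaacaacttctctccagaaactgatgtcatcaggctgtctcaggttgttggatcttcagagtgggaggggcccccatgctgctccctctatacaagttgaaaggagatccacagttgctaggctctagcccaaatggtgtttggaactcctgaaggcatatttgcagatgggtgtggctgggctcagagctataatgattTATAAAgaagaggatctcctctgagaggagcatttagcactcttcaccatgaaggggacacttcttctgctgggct
Scgb2b17: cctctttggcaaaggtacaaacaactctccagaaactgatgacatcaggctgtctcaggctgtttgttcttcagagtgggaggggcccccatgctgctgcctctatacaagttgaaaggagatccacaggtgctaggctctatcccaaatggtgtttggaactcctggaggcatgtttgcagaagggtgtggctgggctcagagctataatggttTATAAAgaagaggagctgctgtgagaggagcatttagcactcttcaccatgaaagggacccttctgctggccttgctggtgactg
Scgb2b33: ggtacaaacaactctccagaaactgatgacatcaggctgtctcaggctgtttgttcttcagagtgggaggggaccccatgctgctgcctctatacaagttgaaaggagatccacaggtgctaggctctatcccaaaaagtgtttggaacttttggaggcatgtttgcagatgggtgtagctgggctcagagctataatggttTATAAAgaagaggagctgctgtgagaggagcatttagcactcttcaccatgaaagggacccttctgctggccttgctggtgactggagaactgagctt
Scgb2b20: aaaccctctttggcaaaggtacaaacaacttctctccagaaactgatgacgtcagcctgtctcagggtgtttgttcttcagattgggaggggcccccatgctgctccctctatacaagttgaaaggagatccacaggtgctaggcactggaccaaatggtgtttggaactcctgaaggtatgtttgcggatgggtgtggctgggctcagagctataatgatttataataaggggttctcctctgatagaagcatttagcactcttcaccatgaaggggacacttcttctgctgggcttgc

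Scgb2b12 is 93.8% identical to Scgb2b19 and 91.4% identical to Scgb2b20 over these windows, and Scgb2b20 is 96.7% identical to Scgb2b7, another steady gene. TATAAA begins 31 bases before the start in Scgb2b12, 26 in Scgb2b19, 35 in Scgb2b17 and 48 in Scgb2b33, while the aligned bases of both Scgb2b20 and Scgb2b7 read TATAAT. RefSeq gave promoters for 32 Scgb loci, 28 of them members. TATAAA on the gene's strand with its first base 60 to 15 bases before the start was present in 12 of these 32, against 2.68% of 32817 promoters of all genes, and TATAAA on either strand anywhere in the window in 22 of 32, against 13.6% of all. Of 19 Scgb2b genes with both a promoter and a spread value, 9 held the placed TATAAA, and all 9 had a correlation with Scgb2b12 above 0.6 (Scgb2b12 itself included), with SDs between 0.34 and 1.34. Of the other 10, 3 exceeded 0.6 (Scgb2b6, Scgb2b11 and Scgb2b18), and their SDs lay between 0.055 and 0.48. The alpha genes did not follow this split. Scgb1b2 and Scgb1b24 held the placed TATAAA at correlations of −0.232 and 0.078 and SDs of 0.078 and 0.087. Scgb1b12 (0.966) and Scgb1b10 (0.781) lacked it, as did Scgb1b27 (0.264). The copies share ancestry and, in part, sequence, Scgb2b10, Scgb2b15 and Scgb2b17 having identical promoters, so this is a description of a few related genes.

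Other motifs searched on both strands did not follow this split. The steroid receptor half-site AGAACA was found in 19 of 32 Scgb promoters, against 19.0% of all promoters, in both variable (Scgb2b12, Scgb2b17 and Scgb2b33) and steady genes (Scgb2b2, Scgb2b7 and Scgb2b20). The full palindrome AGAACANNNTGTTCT and the E-box CACGTG were found in 0 of 32, against 0.01% and 7.15% of all promoters.

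In BALB/c, 6 of 49 tested members were called from 2M to 4M, each of them lower at 4M, where 11.1% of all genes were called, 6.1% higher and 5.01% lower. From 2M to 6M, 2 of 51 rose and 5 fell, where 5.61% of all genes were called, 3.48% higher and 2.13% lower. From 4M to 6M edgeR called 0 members in BALB/c, where 0.307% of all genes were called, although 22 had an unadjusted p under 0.05, 19 of them with a higher level at 6M, and DESeq2 called 7. The share of all genes at an unadjusted p under 0.05, or called by DESeq2, is not given for any comparison. In NOD.H-2b, 4 of 51 members were called from 2M to 4M, each of them higher at 4M, where 15.8% of all genes were called, 10.3% higher and 5.48% lower. Between 2M and 6M, 4 of 51 rose and 6 fell, where 40% of all genes were called, 20.7% higher and 19.4% lower. The called share of the members was thus above that of all genes in BALB/c from 2M to 6M and below it in NOD.H-2b over both intervals. From 4M to 6M edgeR called 0 members in NOD.H-2b, where 0.00555% of genes were called, with 6 at an unadjusted p under 0.05, and DESeq2 called 0.

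The members called in BALB/c from 2M to 4M were Scgb2b1, Scgb2b28-ps (−0.69), Scgb2b2, Scgb2b24 (−0.28), Scgb1b24 (−0.26) and Scgb1b7 (−0.22). In NOD.H-2b the 4 that rose over the same interval were Scgb2b15, Scgb1b28-ps (1.14), Scgb1b2 and Scgb1b3. Of the calls not described elsewhere, that of Scgb2b24 was lost without BALB/c 2M replicate 1, 2 or 3 (adjusted p from 0.0579 to 0.0697) and that of Scgb1b7 without BALB/c 2M replicate 1, 2 or 3 or 4M replicate 1 (adjusted p from 0.0562 to 0.162). From 2M to 6M the falls of Scgb2b1, Scgb2b3 and Scgb2b28-ps were called in both strains. Scgb2b28-ps fell by 0.69 in BALB/c (adjusted p = 0.0449), which was lost without BALB/c 2M replicate 1, 2 or 3 or 6M replicate 1 or 2 (adjusted p from 0.0744 to 0.121), and by 1.15 in NOD.H-2b (adjusted p = 0.0374), which was lost without NOD.H-2b 2M replicate 1 or 3 or 6M replicate 1 or 3 (adjusted p from 0.0813 to 0.104).

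The strain by age term was called for 3 of 51 tested members from 2M to 4M, where 1.67% of all genes were called, and for 4 of 51 from 2M to 6M, where 16.1% were called. Beside Scgb1b2, Scgb2b1 and Scgb2b2, the fourth was Scgb2b29-ps, a pseudogene near 1 CPM. In BALB/c Scgb2b29-ps was at 0.963, 1.01 and 0.853 CPM at 2M, 1.2, 0.811 and 1.15 CPM at 4M and 1.16, 1.95 and 1.36 CPM at 6M. The values in NOD.H-2b were 0.985, 1.40 and 1.2 CPM, 1.05, 1.18 and 0.849 CPM and 0.848, 1.02 and 0.991 CPM. Its term from 2M to 6M was −1.16 (SE 0.34, adjusted p = 0.0286), lost without BALB/c 2M replicate 3, BALB/c 6M replicate 2, NOD.H-2b 2M replicate 2 or 3 or NOD.H-2b 6M replicate 1 (adjusted p from 0.051 to 0.0862). Scgb1b29, the alpha gene of the same number, is its partner by number only. It lies 426742 bases away, while neighbouring partners lie at most 13764 bases apart. Scgb1b29 ranged from 7.00 to 12.0 CPM over the 18 mice, and no such term was called for it (−0.45, adjusted p = 0.164). All of its exon windows also occur in the abundant Scgb1b7, so counts may be split between these genes.

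The members known from the airway were at or near the floor in the LG. Scgb1a1 had at most 1 count in any mouse, Scgb1c1 at most 1 and Scgb3a2 at most 2, whereas Scgb3a1 had between 12 and 71 counts, a mean of 0.475 CPM. Scgb1b27, the alpha gene known from saliva, was at a mean of 0.70 CPM. It reached 247 counts, or 2.38 CPM, in BALB/c 6M replicate 1, against 0.23 and 0.24 CPM in the other two mice of that group. Scgb1b27 was called higher in NOD.H-2b at 2M (1.44, adjusted p = 0.0138), which was lost without BALB/c 2M replicate 1 or NOD.H-2b 2M replicate 1 (adjusted p from 0.0552 to 0.0602).

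Other genes of the gland that could bear on ABP output were read from lists. Of 26 markers of acinar and epithelial structure, at 2M the NOD.H-2b mice had 10 called higher and 8 lower, against 1 and 15 at 4M and 2 and 18 at 6M, with median log2 fold changes of −0.0070, −0.41 and −0.48. Among them the water channel gene Aqp5 had a log2 fold change of −0.041 (adjusted p = 0.67), −0.095 (adjusted p = 0.525) and −0.35 (adjusted p = 0.0263), and the tight junction genes Cldn4 (4.72, 2.42 and 3.53) and Cldn7 (−0.45, −1.14 and −0.88) were called at each age in opposite directions. Cldn4 was low, between 0 and 5.72 CPM over the 18 mice, so its fold changes start near the floor. Of other secreted products of the gland, 8 were higher and 10 lower of 28 tested at 2M, 3 and 10 of 27 at 4M and 4 and 16 of 27 at 6M. The largest mean differences among them were in the tear pheromone gene Esp34 (−6.88, −6.15 and −6.67, each called) and the major urinary protein gene Mup5 (−2.93 and −4.90, called at 2M and 6M, and −4.88 at 4M, adjusted p = 0.061). Of genes for steroid enzymes, named after their values were seen, Hsd17b7 was called higher at each age (2.71, 3.87 and 3.53) and Hsd17b11 lower (−0.87, −0.77 and −1.05). They were picked for the largest mean differences among the called genes of their list, whose other genes are not reported here. Hsd17b7 was low, between 0.068 and 4.0 CPM over the 18 mice.

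Most markers of immune cells were higher in NOD.H-2b. All 10 T cell markers were higher in NOD.H-2b at each age, as were 3 of 4, 10 of 10 and 10 of 10 tested B cell markers and 8, 7 and 7 of 8 macrophage markers. Plasma cell markers gave 3 higher and 1 lower of 8 at 2M, 5 and 1 at 4M and 5 and 2 at 6M. The B cell genes Pax5 and Ms4a1 and the T cell genes Cd3d and Cd5 were called higher at each age at which they were tested, as were Irf4, Jchain, Lyz2 and Adgre1. Of 13 salivary gland markers 3 were tested, of which 2, 3 and 3 were lower, Prlr at each age and Amy1 at 4M and 6M, while the salivary genes Smgc, Bpifa2, Muc19 and Prpmp5 had at most 3 counts in any mouse. Of muscle markers, 1, 3 and 2 were tested, with Ckm lower at each age and Ryr1 higher at 4M (2.90, adjusted p = 0.00102). The 5, 4 and 3 tested adipocyte markers had adjusted p between 0.0902 and 0.899. The part of these cells in the secretoglobin values was not tested.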

How the data were processed

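Total RNA of 18 LGs was depleted of ribosomal RNA, made into NEBNext Ultra II libraries and read as 75-base pairs. The deposited file holds raw counts per gene, which the authors made with cutadapt, STAR and HTSeq on GRCm38. Their versions, the strand setting and the handling of reads that fit several copies are not given in the sources used here. A second deposited table, of log2 normalized values, was not used. Total counts per mouse were 49480781 to 103936830, and values of a few counts carry counting error that replicates of 3 mice do not remove.

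Each pair of groups was tested on its own 6 mice with edgeR 4.0.16 in R 4.3.3 (quasi-likelihood test, TMM factors, edgeR's default filter on low counts), and the strain by age term over all 18 mice. P-values were adjusted by Benjamini-Hochberg over all tested genes, all were two-sided, and a member was called at an adjusted p under 0.05. Exon lengths came from GENCODE annotation and 54165 of 54232 genes had a gene model. Levels per length, 75-base windows shared between exons, deviations from group means and RefSeq promoters (250 bases before to 50 after the start) were computed from these. The tests were checked on simulated counts. Alternatives were DESeq2 1.42.0, other scalings and filters, a replicate block, 1 fit of 18 mice and leaving out each mouse, with library totals and the 4 loci of other symbols added after the data were seen.

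Named with values in every mouse were the 12 most abundant members, the members called with a fold of at least 2 between strains in 1 direction at all ages, the member with the largest called change in each age comparison, the members with a called strain by age term, and the partners of all these. Any other member was named after its values were seen. The members and the lists of other genes were chosen with earlier results of these data known. The result of 1 list of other genes is not reported here. Replicate numbers do not pair mice: deviations of same-numbered mice correlated at a mean of 0.005 (−0.42 to 0.43 over 45 pairs), against −0.002 for other pairs. Replicates of a group all differed by more than sampling noise.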

Additional observations from a re-analysis of the deposited data

Results flagged for a closer look

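Members were singled out where the strain difference itself changed with age in edgeR's strain by age term over all 18 mice. From 2M to 4M the term was 0.73 for Scgb1b2, 1.66 for Scgb2b1 and 0.50 for Scgb2b2 on the log2 scale, each meaning that the level moved up in NOD.H-2b relative to BALB/c. From 2M to 6M it was 0.84 for Scgb1b2, 1.98 for Scgb2b1, 0.56 for Scgb2b2 and −1.16 for Scgb2b29-ps. The first 3 genes lie next to each other at the start of the chromosome 7 cluster. All 6 of their terms were also called with library totals. The 4 of Scgb1b2 and Scgb2b1, and that of Scgb2b2 from 2M to 6M, kept their call when any mouse was left out. The Scgb2b2 term from 2M to 4M was lost in 13 of 18 such fits and when the scaling left out the Scgb genes.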

How the results depend on the processing

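Counts of called members depended on scaling, test and single mice, and the causes were not tested. The share of all genes called under each alternative is not given, so the values in this section are counts only. Whether the family moved apart from all genes cannot be read from them. With library totals the counts became 5 higher and 6 lower at 2M, 11 higher and 2 lower at 6M and 1 from 4M to 6M in BALB/c. DESeq2 called 19 lower at 2M, 2 lower at 4M, in BALB/c 7 from 4M to 6M and 12 from 2M to 6M, in NOD.H-2b 7 between 2M and 4M, and 5 and 9 strain by age terms to 4M and 6M. Without a filter on low counts there were 4 higher at 2M, 1 lower at 4M, and 11, 13 and 15 in BALB/c from 2M to 4M, 4M to 6M and 2M to 6M, and with at least 10 counts in every mouse 4 were higher at 4M. In 1 fit of all 18 mice there were 1 higher at 2M, 1 lower at 4M, 19 lower at 6M, 3 for BALB/c between 2M and 4M and 16 for NOD.H-2b between 2M and 6M. Asking for a fold of at least 2 left 2 lower at 2M and 2 at 6M, 1 and 2 in BALB/c from 2M to 4M and 2M to 6M, 2 and 3 in NOD.H-2b, and 1 and 2 strain by age terms. With the 4 other loci 1 was lower at 4M.

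With the replicate block, on numbers that pair no mice, there were 4 higher at 2M, for BALB/c 1 between 4M and 6M and 12 between 2M and 6M, and for NOD.H-2b 1, 1 and 5 between 2M and 4M, 4M and 6M, and 2M and 6M.

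Leaving out 1 mouse gave 1 to 3 higher and 8 to 15 lower at 2M, 6 to 13 and 0 to 1 at 4M, 6 to 11 and 4 to 18 at 6M, 4 to 8, 0 to 4 and 4 to 10 in BALB/c, 1 to 7, 0 to 0 and 3 to 16 in NOD.H-2b, and 2 to 4 and 3 to 7 strain by age terms. The share of the family differed by −3.72 to −3.02, 3.02 to 4.74 and 1.19 to 2.78 points, per exon length by −1.59, 6.43 and 6.69, and with the 4 loci by 1.78 at 4M and −0.889 at 6M. Of 1205 single calls recomputed, 1020 stayed called, 184 were lost and 1 reversed, Scgb2b7 at 2M with library totals (0.017).

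Depth limits the 27 members at 1 CPM or less. The 3 mice per group, unstated strand and shared exon sequence limit what the counts of single copies mean.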
